A study of Mus musculus with 2 samples.

Results

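The genes described here were the matrix metalloproteinases (Mmp), the secreted ADAMTS proteases (Adamts) and the tissue inhibitors of metalloproteinases (Timp), in basal cells of the mouse mammary gland. Members were chosen by gene symbol alone, as Mmp or Adamts followed by a number (with an a or b for the duplicated collagenase genes) or Timp followed by 1 digit. The rule found 46 of the 49492 genes in the count table, namely 23 Mmp, 19 Adamts and 4 Timp genes.

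Metalloproteinases of the MMP family are zinc enzymes that cut collagens, laminins, fibronectin and cell surface proteins, and most are secreted as inactive precursors. ADAMTS enzymes are their relatives with thrombospondin repeats, and they cut proteoglycans such as versican and aggrecan or trim the ends of procollagens. TIMP proteins bind the active site of these enzymes and block it. In the mammary gland, this set of genes is known for its part in the branching of ducts, in the remodelling of the stroma and in the involution that follows lactation.

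The study asked what the loss of macrophages does to mammary basal cells, the outer and contractile epithelial layer that holds the mammary stem cells. Clodronate liposomes, vesicles that kill the macrophages that ingest them, were given by intraperitoneal injection to adult wild-type (WT) female mice, and their basal cells formed the CL basal library. The Ctrl basal library came from WT mice whose treatment is given as none in the sample labels and as saline in the description of the series. Both libraries were labelled day 7, and the basal cells of the study were sorted as CD24+ CD29hi after cells with CD45, CD31 or TER119 had been removed. How many animals were pooled for a library was not given in the sources used here.

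There was 1 library per group, so none of the differences could be checked against replicates, and each test compares the reads of the 2 libraries, not the conditions. The CL basal library held 38962512 counts and the Ctrl basal library 37846008, of which the members took 111115 (0.285%) and 105042 (0.278%). Intervals are 95% exact (Clopper-Pearson) intervals and cover counting error only. A count of 0 allows a level of up to 0.0780 CPM (counts scaled to library size by TMM) in CL basal and 0.0782 in Ctrl basal, which is what 3 counts would give. Where a pair of values is given without group names, CL basal comes first. The markers of the labelled cell type were high in both libraries, with sums over 8 basal genes of 665919 and 639885 counts. The 9 luminal markers summed to 87585 and 150484 counts, and in bulk RNA fewer cells of a type cannot be told apart from less RNA per cell.

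Most members were present, but at levels that spanned several orders of magnitude. At least 1 count was found for 39 members in CL basal and for 40 in Ctrl basal. The 5 members with 0 counts in both libraries were the interstitial collagenases *Mmp1a* and *Mmp1b*, the enamel protease *Mmp20*, *Mmp27* and *Adamts19*. Another 7 members had under 20 counts over both libraries and were not tested. These were *Mmp10* (13 counts in CL basal, 5 in Ctrl basal), *Mmp8* (8 and 0), *Adamts13* (9 and 5), *Mmp11* (3 and 4), *Mmp7* (0 and 2), *Mmp21* (2 and 1) and *Adamts16* (0 and 2). The 34 members with at least 20 counts were among 17356 tested genes.

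Levels of different genes were compared as TMM-scaled CPM per kb of exonic length, averaged over both libraries for the order of the genes. *Adamts1*, which cuts versican and aggrecan, had the highest level, with 300 CPM per kb in CL basal against 252 in Ctrl basal. The inhibitor genes *Timp3*, *Timp1* and *Timp2* and the aggrecanase gene *Adamts4* followed, between 30.9 and 59.7 CPM per kb in either library. The proteases of the MMP family with the highest level per kb were the gelatinase *Mmp2* (23.5 and 25.6 CPM per kb) and the membrane-bound *Mmp14* (20.1 and 24.2), which activates the *Mmp2* precursor. *Adamts9* (13.3 and 13.6), *Mmp3* (5.30 and 15.6) and *Adamts5* (3.03 and 2.67) completed the 10 highest. Per kb, *Timp3* stood above *Timp1* in CL basal, at 58.3 and 43.6 CPM. In Ctrl basal these genes were too close to be ordered, at 58.9 and 59.7.

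**Figure D1:**
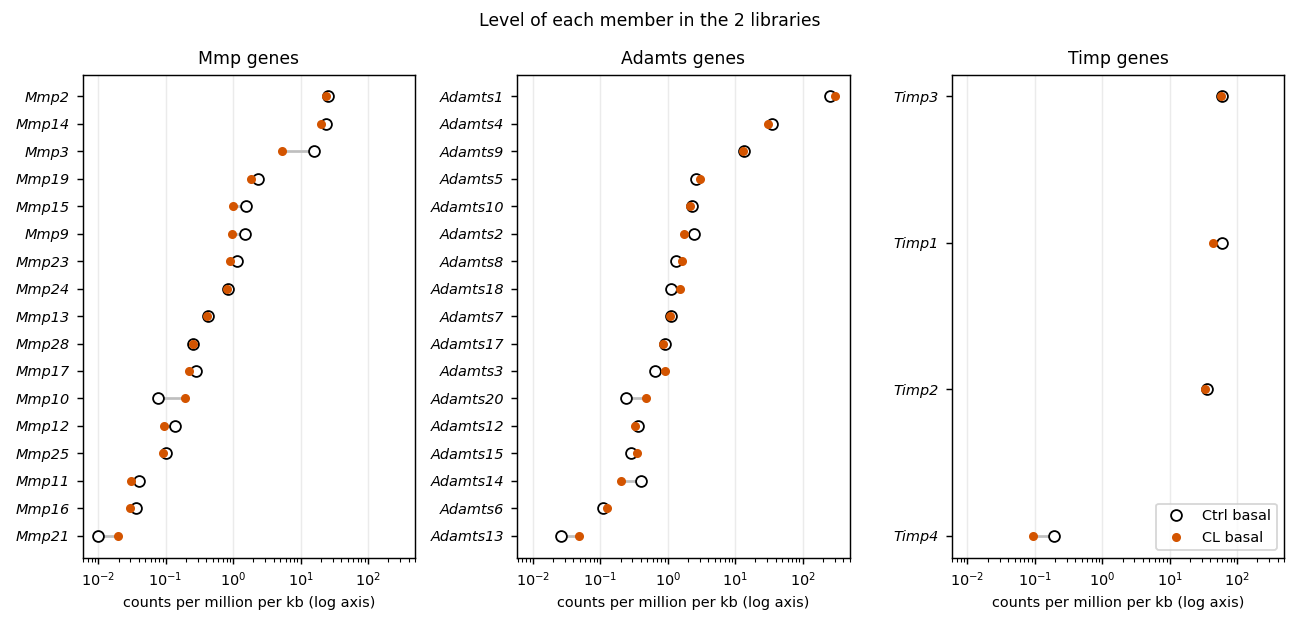
Level of each member with at least 1 count in both libraries, in TMM-scaled CPM per kb of exonic length on a log axis, by family. Open circles are Ctrl basal and filled circles CL basal, and the widest separation above 1 CPM per kb is that of *Mmp3* (15.6 in Ctrl basal and 5.30 in CL basal).

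In the comparison of CL basal with Ctrl basal, the members that fell were mostly Mmp and Timp genes, and those that rose were all Adamts genes. A gene is written as having fallen or risen where a two-sided exact binomial test on its reads gave a Benjamini-Hochberg adjusted p under 0.05 over all tested genes, and as called where the change was also at least 2-fold. Changes are given on the log2 scale, CL basal over Ctrl basal. Of the 34 tested members, 2 were called lower, the stromelysin *Mmp3* and the inhibitor *Timp4*. This is a share of 5.88%, where 4.15% of all tested genes were called lower. No member (0) was called higher, where 1.87% of all tested genes were, and 6 members rose by the read test without the fold threshold. Those 6 were a share of 17.6%, where 22.6% of all tested genes rose. In all, 12 members (35.3%) fell by the read test without the fold threshold, *Mmp3* and *Timp4* included, where 21.9% of all tested genes fell. The other 16 tested members did not pass the read test, so their intervals limit the change but do not show equal levels. The median log2 fold change of the 34 members was -0.10, and that of all tested genes was -0.01.

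**Figure D2:**
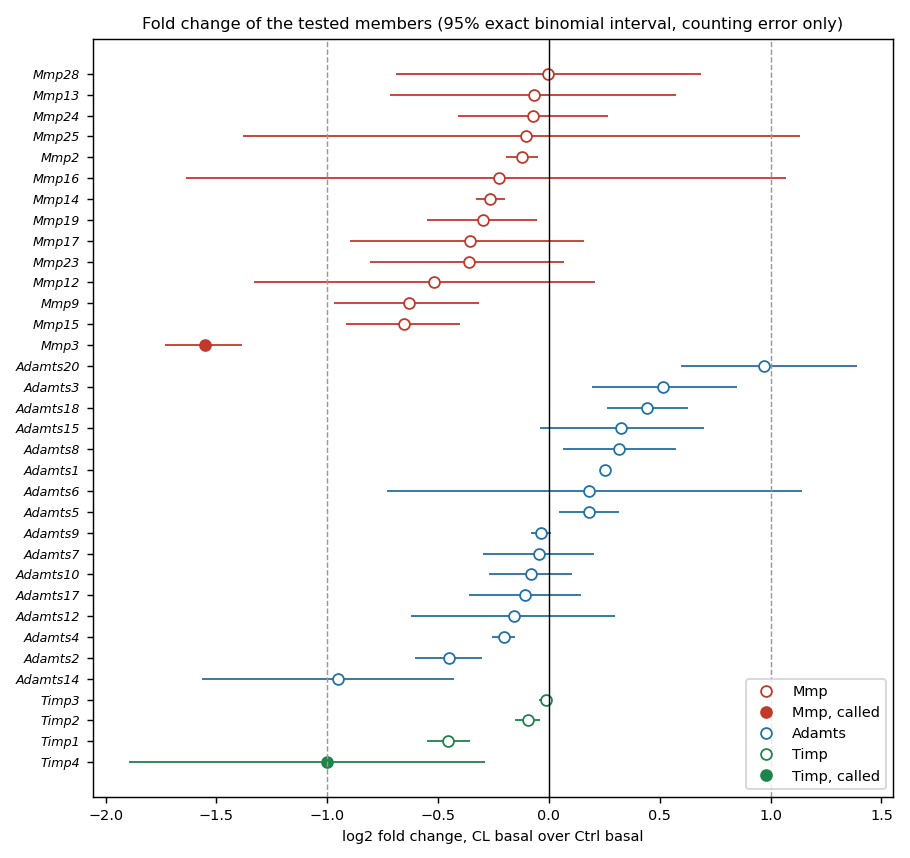
Log2 fold change of CL basal over Ctrl basal for the 34 tested members, with 95% exact binomial intervals that cover counting error only; dashed lines mark a 2-fold change and filled points the members called. *Mmp3* (-1.55) lies beyond the 2-fold line with its whole interval, and *Timp4* (-1.003) lies on it.

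All 14 tested Mmp genes had a log2 fold change below 0, which became 13 with DESeq2 size factors or upper quartile scaling (*Mmp28* at or above 0) and 10 with the trend on mean expression removed. In the last case *Mmp13*, *Mmp24*, *Mmp25* and *Mmp28* were above 0. With no filter on low counts, 16 of 19 Mmp genes were below 0, and *Mmp8*, *Mmp10* and *Mmp21* were above. Of all 17356 tested genes, 8977 were below 0. Of the 14, 6 fell (*Mmp2*, *Mmp3*, *Mmp9*, *Mmp14*, *Mmp15* and *Mmp19*) and 0 rose, where 21.9% of all tested genes fell and 22.6% rose. With upper quartile scaling 5 fell, with counts halved 4 fell, and with no filter 5 fell and 1 rose. Of the 6, *Mmp2* and *Mmp19* had the intervals that ended nearest to 0 (-0.05 for each). Over all 23 Mmp genes, counts summed to 7756 and 9685, 202 and 252 CPM. Without *Mmp3* the sums were 7389 and 8609 counts, and the median log2 fold change of the other 13 tested genes was -0.26, against -0.28 with it.

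The largest difference among the 34 tested members was that of *Mmp3*, or stromelysin 1, which cuts proteoglycans, laminin and fibronectin and activates other MMP precursors. Its transcripts (chromosome 9, 7445822 to 7455975, GRCm38) gave 1076 counts in Ctrl basal and 367 in CL basal. *Mmp3* changed by -1.55 on the log2 scale (95% interval -1.73 to -1.38), which is 2.93-fold lower in CL basal. The gene took 4.73% of all Mmp counts in CL basal (95% interval 4.27 to 5.23%) and 11.1% in Ctrl basal (10.5 to 11.8%). It was still called with an assumed coefficient of variation of 0.2 between animals, a spread that these libraries cannot give, but not with 0.4. *Mmp3* shared no annotated exonic base with another gene in the table. Of the 7 tested members with 1000 to under 10000 counts over both libraries, *Mmp3* lay outside the 5th to 95th percentile of the 5592 tested genes in that count range (-0.43 to 0.40), together with *Adamts2*, *Adamts18* and *Timp1*.

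*Mmp3* is 1 of 10 Mmp genes that lie next to each other on chromosome 9, over 427072 bases from 7272514 to 7699585. In genome order these are *Mmp13*, *Mmp12*, *Mmp1b*, *Mmp3*, *Mmp1a*, *Mmp10*, *Mmp8*, *Mmp27*, *Mmp20* and *Mmp7*, the collagenases, stromelysins, macrophage elastase (*Mmp12*) and matrilysin (*Mmp7*). Of the other 9 genes, only *Mmp13* and *Mmp12* had enough counts for a test. *Mmp13*, a collagenase, was counted 44 times in Ctrl basal and 42 times in CL basal, a change of -0.07 (95% interval -0.72 to 0.57). *Mmp12* was at 26 and 38 counts, a change of -0.52 (-1.33 to 0.21), and its transcript is known above all from macrophages. Neither passed the read test, and both intervals end above the value of *Mmp3*. The second stromelysin gene, *Mmp10*, was at 13 and 5 counts, and the neutrophil collagenase *Mmp8* at 8 and 0. Neither was tested, and the 95% interval of the log2 change of *Mmp8* starts at 0.77. Over the whole cluster, counts summed to 456 and 1165, most of them from *Mmp3*.

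**Figure D3:**
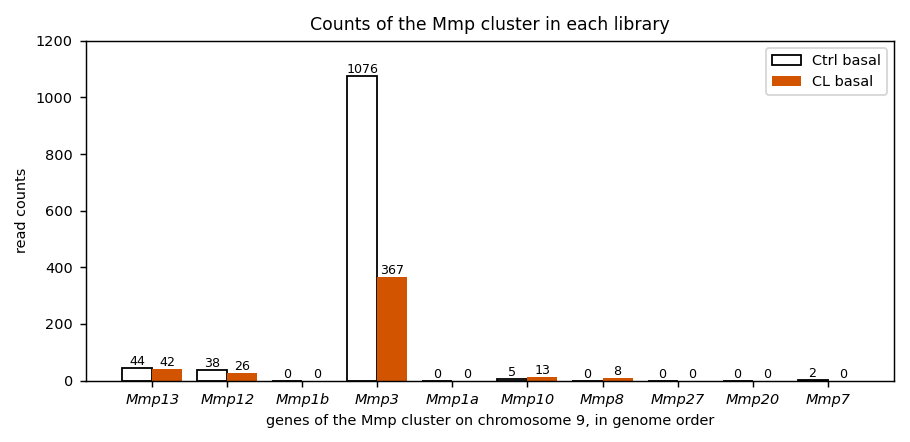
Read counts of the 10 genes of the Mmp cluster on chromosome 9 in genome order, with open bars for Ctrl basal and filled bars for CL basal. *Mmp3* stands at 1076 and 367 counts, and no other gene of the cluster exceeds 44 counts in either library.

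Most promoters of this cluster share sequence features that the choice of members did not use, and 4 are shown, those of the 3 tested genes and of the second stromelysin. RefSeq promoter sequences (GRCm38.p6, 250 bases before and 50 after the start) were present for 32 of the 46 members. They were searched on both strands for TGANTCA (the AP-1 motif), TATAAA (the TATA box) and AGGAAG (an Ets family motif), and no match of 1 motif overlapped a match of another in a member. AP-1 letters were found in 8 of the 32 members, and each of the 8 lay in the chromosome 9 cluster (*Mmp1a*, *Mmp1b*, *Mmp3*, *Mmp7*, *Mmp10*, *Mmp12*, *Mmp13* and *Mmp20*). They were thus found in 8 of its 10 genes. The exceptions were *Mmp8*, which had the TATA letters but not the AP-1 letters, and *Mmp27*, which had neither of these. Of all 32851 promoters of this length, 7.81% held the AP-1 letters. This share is per sequence, whereas a member was counted where any of its promoter sequences held the letters. The same 8 genes also held the TATA letters, a pair of features found in 1.54% of all promoters. In *Mmp12* both belong to the later of its 2 starts, where the TATA letters begin 4 bases after the start, and the stretch of the same length at its earlier start held neither. The stretches below run from 130 bases before the RefSeq start to 20 bases after it, 5′ to 3′ on the plus strand of chromosome 9, with the AP-1 and TATA letters in capitals. They lie at chr9:7445692-7445841 (*Mmp3*), chr9:7502212-7502361 (*Mmp10*), chr9:7272384-7272533 (*Mmp13*) and chr9:7347244-7347393 (*Mmp12*, later start).
Mmp3: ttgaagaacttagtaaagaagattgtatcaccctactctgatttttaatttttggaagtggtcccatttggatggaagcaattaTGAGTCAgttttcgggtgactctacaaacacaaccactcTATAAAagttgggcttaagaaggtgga
Mmp10: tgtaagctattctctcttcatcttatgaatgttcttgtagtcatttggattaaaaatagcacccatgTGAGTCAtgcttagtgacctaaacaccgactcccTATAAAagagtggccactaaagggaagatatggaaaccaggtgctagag
Mmp13: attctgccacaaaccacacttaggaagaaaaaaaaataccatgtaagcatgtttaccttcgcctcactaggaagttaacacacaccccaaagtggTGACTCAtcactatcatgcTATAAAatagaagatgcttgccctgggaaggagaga
Mmp12: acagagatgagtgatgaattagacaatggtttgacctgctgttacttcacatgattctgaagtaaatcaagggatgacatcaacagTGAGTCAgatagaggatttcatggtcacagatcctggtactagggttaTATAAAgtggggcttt

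In these stretches the AP-1 letters began 46 bases before the start in *Mmp3*, 63 in *Mmp10*, 35 in *Mmp13* and 44 in *Mmp12*. *Mmp3*, *Mmp10* and *Mmp12* held the same 7 letters, TGAGTCA, and *Mmp13* held TGACTCA. A motif match is a description of the sequence, and genes that held both motifs ranged from 0 counts in both libraries (*Mmp1a*, *Mmp1b*, *Mmp20*) to the 1076 counts of *Mmp3*. Outside the cluster, AP-1 letters were found in 0 of 22 member promoters and TATA letters in 2, those of *Adamts1* and *Mmp21*. The Ets letters were found in 15 of 32 members, 7 of them in the cluster, where 35.4% of all promoters held them.

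The gelatinases, which cut denatured collagen and the collagen of basement membranes, both fell by less than 2-fold. *Mmp2* (chromosome 8, 92827291 to 92853420) went from 3310 counts in Ctrl basal to 3046 in CL basal, a change of -0.12 (95% interval -0.19 to -0.05) that was -0.18 with the trend on mean expression removed. *Mmp9* went from 202 to 130 counts, a change of -0.63 (-0.97 to -0.31). *Mmp2* was by far the more abundant of the pair in both libraries, and its relative change was the smaller, with intervals that do not overlap.

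All 6 membrane-type genes (*Mmp14*, *Mmp15*, *Mmp16*, *Mmp17*, *Mmp24* and *Mmp25*), whose products stay anchored at the cell surface, were below 0 (except *Mmp24* and *Mmp25* with the trend on mean expression removed), and 2 of them fell. *Mmp14* (chromosome 14, 54431612 to 54441265), the main collagenase of the cell surface, fell from 3987 to 3327 counts, by -0.26 on the log2 scale (95% interval -0.33 to -0.20). *Mmp15* fell from 326 to 207 counts, with a change of -0.65 (-0.92 to -0.40). The other 4 had changes between -0.35 and -0.07, from 10 and 12 counts (*Mmp16*) up to 144 and 151 (*Mmp24*), and did not pass the read test. Among the remaining tested Mmp genes, *Mmp19* fell, with 245 and 301 counts and a change of -0.30 (-0.55 to -0.05). Of its 3410 exonic bases, 789 overlapped *Tmem198b* on the opposite strand, and the use of strand in the counting was not given in the sources used here. *Mmp23* (80 and 103 counts) and *Mmp28* (38 and 38 counts) did not pass the read test.

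The Adamts genes were divided evenly, with 8 of the 16 tested below 0 and 8 above (7 and 9 with upper quartile scaling and after removal of the trend on mean expression). Of these, 6 rose (*Adamts1*, *Adamts3*, *Adamts5*, *Adamts8*, *Adamts18* and *Adamts20*) and 3 fell (*Adamts2*, *Adamts4* and *Adamts14*). These are shares of 37.5% and 18.75%, where 22.6% of all tested genes rose and 21.9% fell. The median log2 fold change of the 16 was 0.07. This median had no settled sign: it was 0.03 with total counts, 0.04 with counts halved and -0.03 with at least 100 counts. With scaling by total counts 4 rose and 4 fell, and with counts halved 3 rose and 3 fell. The family's counts summed to 78538 and 69472, and *Adamts1* made up 77.8% of them in CL basal (95% interval 77.5 to 78.0%) and 73.6% in Ctrl basal (73.3 to 74.0%).

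The 7 hyalectanases, the ADAMTS enzymes that cut aggrecan, versican and related proteoglycans, included 4 of the 6 genes that rose. *Adamts1* (chromosome 16, 85793827 to 85803113) rose from 51150 to 61070 counts. The change of *Adamts1* was 0.25 on the log2 scale (95% interval 0.24 to 0.27), a 1.19-fold difference whose interval is narrow because of the depth of the gene. *Adamts5* (chromosome 16, 85858170 to 85901125), which lies 55056 bases from *Adamts1* and encodes the main aggrecanase of cartilage, rose from 828 to 941 counts. The change of *Adamts5* was 0.18 (95% interval 0.05 to 0.32), so both neighbours rose by less than 1.5-fold. *Adamts20*, known for its part in melanoblasts, had the largest rise of the family and stayed just under 2-fold (1.96-fold). It had 163 and 82 counts and a change of 0.97 (95% interval 0.60 to 1.39). It was called higher with upper quartile scaling and with the trend on mean expression removed. *Adamts8* rose from 232 counts to 290, a change of 0.32 (0.06 to 0.57). Of its 4613 exonic bases, 489 overlapped a gene on the opposite strand.

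*Adamts4* went the other way. The gene (chromosome 1, 171250421 to 171260637) fell from 6560 to 5707 counts, a change of -0.20 (95% interval -0.26 to -0.15). *Adamts9* (chromosome 6, 92772699 to 92943492), which also serves in the growth of primary cilia, stood at 7688 and 7857 counts. Its change of -0.03 (95% interval -0.08 to 0.01) did not pass the read test, and was -0.12 with the trend on mean expression removed, -0.07 with total counts and 0.002 with upper quartile scaling. *Adamts15* (141 and 112 counts) did not pass it either.

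The procollagen N-proteinases, which remove the amino-terminal end of fibrillar procollagens, moved in both directions. *Adamts2*, the main enzyme for types I and III procollagen, fell from 867 counts to 635, a change of -0.45 (95% interval -0.60 to -0.30). *Adamts14* fell from 81 counts to 41, a change of -0.95 (-1.56 to -0.43), which at 1.93-fold stayed just under the threshold. *Adamts3*, which also processes the lymphatic growth factor VEGF-C, rose from 133 counts to 191, a change of 0.51 (0.19 to 0.85). Among the other ADAMTS genes, *Adamts18* rose from 434 counts to 592, a change of 0.44 (0.26 to 0.63), and *Adamts6*, *Adamts7*, *Adamts10*, *Adamts12* and *Adamts17* did not pass the read test.

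**Figure D4:**
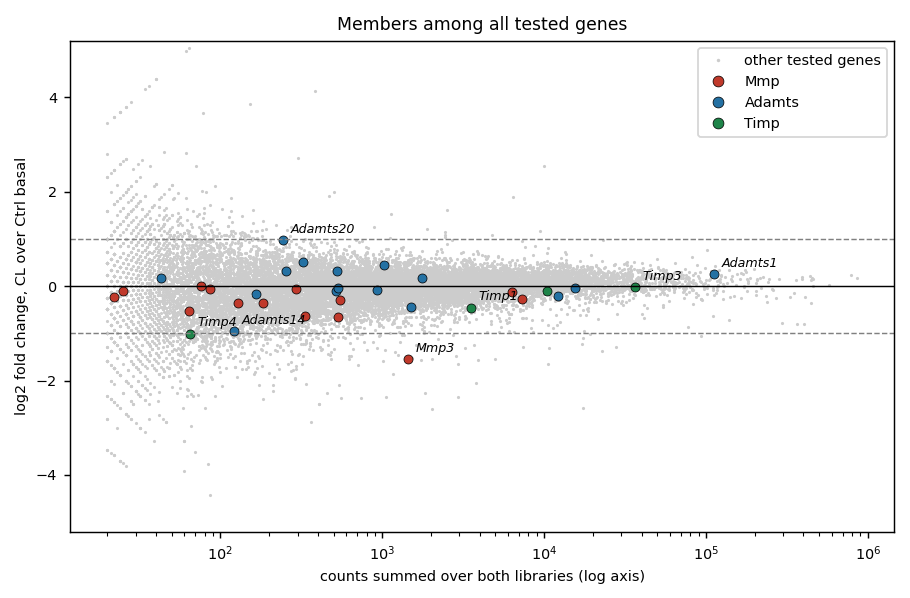
Log2 fold change of CL basal over Ctrl basal against counts summed over both libraries (log axis) for all 17356 tested genes, with the members in colour by family; dashed lines mark a 2-fold change. *Mmp3* stands below the 5th percentile of genes with 1000 to under 10000 counts (-0.43), and *Timp4* lies within the wider spread of genes with 20 to 99 counts (5th to 95th percentile -1.59 to 1.26).

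All 4 inhibitor genes had a log2 fold change below 0 (3 with upper quartile scaling, where *Timp3* was above 0), and 3 of them fell. With total counts 4 fell, with upper quartile scaling 2, and with counts halved 1. Over all tested genes 21.9% fell in the main setting. *Timp3* (chromosome 10, 86300372 to 86349506), the inhibitor that stays bound to the matrix and also blocks ADAMTS and ADAM enzymes, stood at 18245 and 18402 counts. With a change of -0.02 (95% interval -0.05 to 0.01), *Timp3* did not pass the read test. Its value was -0.10 with the trend on mean expression removed, -0.05 with total counts and 0.02 with upper quartile scaling. Of its 8144 exonic bases, 1733 overlapped *Syn3* on the opposite strand, and *Syn3* was listed with 6514 and 6850 counts, a part of which cannot be told apart from *Timp3* without strand. *Timp2* (chromosome 11, 118301069 to 118355740), which also helps *Mmp14* to activate the *Mmp2* precursor, fell from 5404 to 5067 counts, by -0.10 on the log2 scale (95% interval -0.15 to -0.04). This value was -0.17 with the trend on mean expression removed and -0.06 with upper quartile scaling. With counts halved, *Timp2* did not pass the read test. *Timp1* (chromosome X, 20870166 to 20874735), a secreted inhibitor that binds *Mmp9* and *Mmp3* among others, fell from 2035 to 1488 counts. The change of *Timp1* was -0.45 (95% interval -0.55 to -0.36), below the 5th percentile of genes with 1000 to under 10000 counts (-0.43).

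*Timp4* was called lower, on few counts. The gene (chromosome 6, 115241892 to 115252205) went from 44 counts in Ctrl basal to 21 in CL basal. The change was -1.003 (95% interval -1.89 to -0.29), just inside the 2-fold threshold. *Timp4* lies opposite *Syn2* and shared 90 of its 5894 exonic bases with that gene. Among the 3849 tested genes with 20 to 99 counts it was inside the 5th to 95th percentile, and it lost its call under several settings. With counts halved, tried because the mates of a read pair were probably counted separately, its change was still -1.003 but did not pass the test. It was not called either with upper quartile scaling (-0.97), a prior count of 5 (-0.92), the trend on mean expression removed (-0.89) or an assumed coefficient of variation of 0.2 or 0.4. At 0.0927 and 0.195 CPM per kb, it was also the inhibitor with the lowest level, at 0.0846% and 0.170% of the Timp counts.

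The balance of inhibitor and protease transcripts can be given as ratios of counts within a library, which scaling does not touch. Timp counts per Mmp count came to 3.20 in CL basal, against 2.67 in Ctrl basal. For each *Timp1* count there were 0.247 and 0.529 *Mmp3* counts, so *Mmp3* was lower by more than its inhibitor was. The ratio of *Mmp14* to *Timp2* counts was 0.657 and 0.738, and that of *Adamts1* to *Timp3* counts was 3.35 and 2.78. Such ratios depend on gene length and say nothing of the proteins or their activity.

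Other genes of pericellular proteolysis, which act with the members at the cell surface and in the matrix, were followed in 8 lists of 74 genes that hold no member. Of the 66 tested, 6 were called lower and 0 higher, 32 fell and 8 rose by the read test without the fold threshold, and the median log2 fold change was -0.12. Over all tested genes 4.15% were called lower and 1.87% higher, and 21.9% fell and 22.6% rose. Of 10 tested genes of plasminogen activation, 5 fell and 1 rose, with a median of -0.10. *S100a10*, part of the cell surface receptor for plasminogen and the gene with the highest level of that list (393 and 402 CPM per kb), had a change of -0.03 (95% interval -0.06 to -0.003). Of 11 genes of MMP activation, docking and clearance, 6 fell and 2 rose, with a median of -0.06. *Bsg*, which encodes the MMP inducer basigin, had the highest level per kb of that list and fell from 10984 counts to 9901. *A2m*, the broad protease inhibitor alpha-2-macroglobulin, was called lower on 6 and 20 counts.

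Of the 8 lists, that of the membrane-anchored ADAM proteases had the largest share of fallen genes. Of 8 tested, 7 fell and 0 rose, with a median log2 fold change of -0.34. *Adam9* had the highest level of the list, at 5625 and 5909 counts, and *Adam33* was called lower, with 27 and 57 counts. Of 7 ADAMTS-like genes, which lack the protease domain, 3 fell and 1 rose. *Thsd4*, which encodes a binding partner of fibrillin, was called lower with 445 and 914 counts, a change of -1.04 (95% interval -1.21 to -0.88), and *Papln*, the highest per kb, rose from 1766 counts to 2149.

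Of 10 serine proteases and their inhibitors, 7 fell and 1 rose, and the median was -0.35. *Htra1* had the highest level per kb and fell from 1998 counts to 1237. *Fap* (22 and 46 counts) and *Htra3* (14 and 36 counts), both known from activated stroma, were called lower. Of 4 tested genes in the list of procollagen proteinases, which also holds their enhancers, 3 fell. These were the C-proteinase *Bmp1* with 3233 and 3586 counts and the enhancers *Pcolce* (165 and 218) and *Pcolce2* (25 and 48). The proteinase *Tll1* (522 and 465 counts) did not pass the read test. The cathepsins and cystatins had a median of -0.03, with 1 of 10 tested genes that fell and 1 that rose. *Ctsl*, the highest per kb, had 33788 and 33930 counts, and *Ctsk*, the collagen-degrading cathepsin of osteoclasts and fibroblasts, was called lower with 61 and 134. Of 6 tested substrates of ADAMTS enzymes, 0 fell and 2 rose, and versican (*Vcan*), the highest per kb, rose from 1466 counts to 2200, a change of 0.58 (95% interval 0.49 to 0.68).

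**Figure D5:**
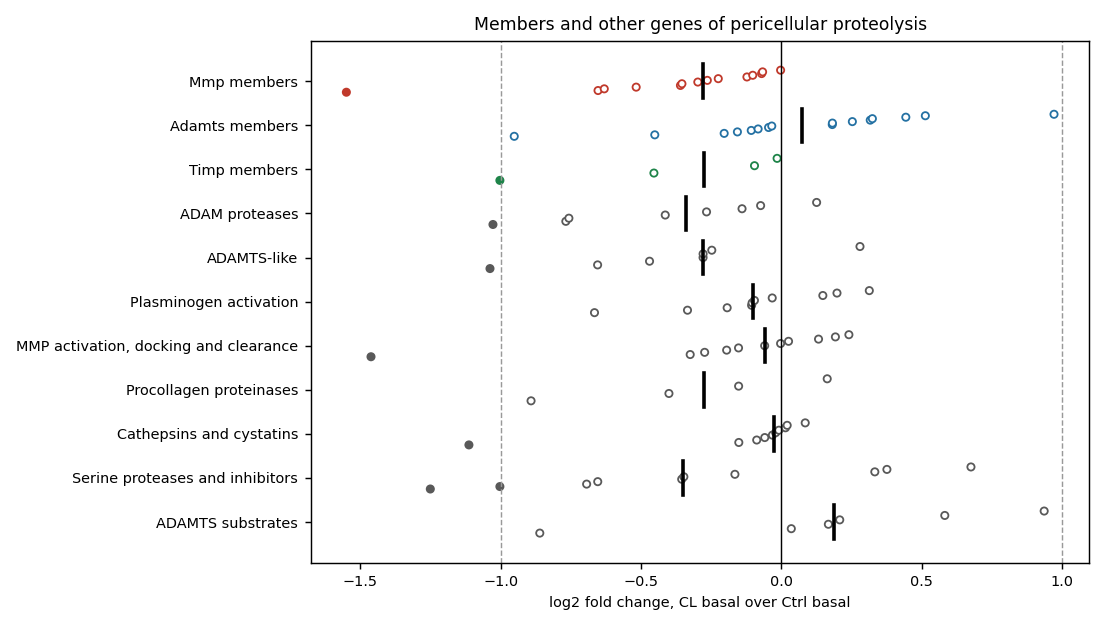
Log2 fold change of CL basal over Ctrl basal for the tested members by family and for 8 lists of other proteolysis genes; each point is a gene, filled points were called, the vertical bar of each line is its median and dashed lines mark a 2-fold change. Medians run from -0.35 for the serine proteases to 0.19 for the ADAMTS substrates.

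Markers of several other cell types mostly moved in the same direction as the members that fell. Over all tested genes 21.9% fell and 22.6% rose, and of the 8 basal markers 3 fell and 5 rose. The 8 fibroblast markers summed to 8166 and 9991 counts, 6 of them fell, 1 rose (*Col3a1*), and none was at 0. *Lum* (34 and 128 counts) was called lower, a change of -1.86. All 5 pericyte markers fell, with sums of 3002 and 4538. The 5 adipocyte markers summed to 3545 and 4779, and the 3 tested fell, with *Plin1* (12 and 30 counts) called lower. The 9 luminal markers had a median log2 fold change of -0.86, and 8 of them fell, with *Krt19* (5497 and 11811 counts) called lower. The 5 endothelial markers summed to 11176 and 13955 counts, although cells with CD31 had been gated out. Of these, 3 fell, *Emcn* rose (215 and 154 counts) and *Tek* (408 and 423) did not pass the read test. The 10 macrophage markers summed to 573 and 699 counts, with 5 of the 6 tested below 0. *Mrc1* (86 and 168 counts) and *Cd68* (185 and 233) fell, *Csf1r* (89 and 64) did not pass the read test, and *Adgre1*, which encodes F4/80, was too low to test (10 and 7). The 6 neutrophil markers, set beside *Mmp8*, summed to 98 and 30 counts, with *S100a9* (66 and 15) called higher, and *Ly6g* at 0 in both libraries. The part of other cell types in the values of *Mmp3*, *Timp1*, *Timp4*, *Mmp8* or any other member was not tested.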

How the data were processed

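The deposited values used were raw read counts per gene, laid out as featureCounts writes them. They were made by the authors from sorted basal cells, with GRCm38 and mm10 named in the submitters' processing notes. The aligner, annotation release, use of strand and filters were not given in the sources used here. A deposited column with the log2 ratio of the libraries was not used. Of the counts from 1 to 20, 68.7% were even in CL basal, against 67.9% in Ctrl basal, so mates of a read pair were probably counted separately, and intervals are then too narrow. Rows whose names had taken the form of dates entered only the genome-wide counts.

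Counts were scaled by TMM in edgeR 4.0.16 (R 4.3.3), and the factors were 0.987 (CL basal) and 1.01 (Ctrl basal). The test took in genes whose summed counts reached 20, and log2 fold changes used a prior count of 2. The two-sided exact binomial test on reads (2 times the smaller tail) and its exact intervals used scipy 1.17.1 in Python 3.11.15. The Benjamini-Hochberg adjustment was coded directly, and the trend on mean expression was fitted by lowess in statsmodels 0.14.6. Calls required a 2-fold change beside an adjusted p under 0.05. edgeR's quasi-likelihood test and DESeq2 could not be fitted to 1 library per group. The test was tried on simulated counts with counting noise only and with changes placed in genes with at least 100 counts. Such counts hold no spread between animals and no mates counted separately, so the trial says nothing of either.

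Named in full were the called members, the 10 highest per kb, the 4 Timp genes and the tested members of the chromosome 9 cluster, and from each proteolysis list the called genes and the highest per kb. Members named beside these, such as *Mmp9*, *Mmp15*, *Adamts14* and *Adamts20*, and marker genes named singly, were chosen after their values were seen. The members and lists were chosen with earlier results of these data known. All 46 members were found by name at overlapping positions in GENCODE release M21. Each alternative changed 1 choice: another scaling (total counts, upper quartile, or size factors of DESeq2 1.42.0), another prior count (0.5 or 5), another filter (none, or 100 counts), counts halved, a 1.5-fold threshold, the trend on mean expression removed, or a coefficient of variation of 0.2 or 0.4 assumed in edgeR's exact test.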

Additional observations from a re-analysis of the deposited data

How the results depend on the processing

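Of the 2 members called lower, *Mmp3* stayed called under every alternative except an assumed coefficient of variation of 0.4, where 0 members were called. It was the 1 member called lower with upper quartile scaling, a prior count of 5, at least 100 counts, counts halved, an assumed coefficient of 0.2 and the trend removed. A threshold of 1.5-fold called 5 lower (*Mmp3*, *Timp4*, *Mmp9*, *Mmp15* and *Adamts14*) and 1 higher (*Adamts20*). The shares of all tested genes given earlier are those of the main setting, so they cannot be set beside counts under the alternatives. *Adamts20* was also the 1 member called higher with upper quartile scaling and with the trend removed, and *Mmp8* was the 1 called higher with no filter on low counts, in place of 0. With total counts, DESeq2 size factors and a prior count of 0.5, the counts stayed at 2 lower and 0 higher. The members' median ran from -0.14 to -0.07. Of 114 values of the 13 members named by rule, 105 lay within the interval of the reported value. Sign changes were limited to *Adamts9*, *Mmp13* and *Timp3*, none of which had passed the read test in the main setting. With total counts all 4 Timp genes fell, *Timp3* included. The log2 fold change of *Mmp3* ran from -1.59 to -1.51 and that of *Timp4* from -1.05 to -0.89. With counts halved, 4 Mmp genes and 1 Timp gene fell in place of 6 and 3, and 3 Adamts genes rose in place of 6. Apart from the built-in effects of the filter, threshold and assumed spread, the cause of these shifts was not tested. Members with under 100 counts over both libraries have intervals over 1 unit wide on the log2 scale, so small changes were not detectable in them at this depth. No paired analysis was possible because there was 1 library for each condition.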
